A study of Mus musculus with 8 samples.

Results

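The 4 wild-type (WT) libraries of a series of 8 RNA sequencing libraries are described here on their own, as the baseline transcriptome of the cells from which the study started. They were chosen by their titles alone, which name them as wild type and number them 1 to 4. The other 4 libraries come from littermates without endothelial LRP1, a large endocytic and signaling receptor. None of their values is given below, but they took part in the authors' normalization across the 8 libraries, which set the values used here. The study asked how endothelial LRP1 affects glucose metabolism. According to its methods the WT mice were LRP1 f/f; Cdh5-CreER-/-, so that both Lrp1 alleles carried loxP sites and no Cre was present. The labels give C57BL/6 as the strain, postnatal day 14 as the age and a heart, liver and lung mixture of microvascular cells as the material. Per the methods, such cells were isolated with magnetic beads that carried an antibody against PECAM-1. The paper describes RNA sequencing of liver cells apart from heart and lung cells, so its description does not match this mixture in full. The genotype and the isolation given here are taken from the paper and were not checked for these pups. The methods name male mice for the chow, high-fat diet and streptozotocin studies, and do not mention pups of this age. The sources used here do not say whether each library came from 1 mouse or from pooled mice, whether the cells were cultured before lysis, or which sex the pups had. Spread between libraries may therefore be technical as well as biological.

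Endothelial cells line blood and lymph vessels, hold to each other through VE-cadherin (Cdh5) and PECAM-1 (Pecam1), and sense growth factors through receptors such as VEGFR2 (Kdr) and Tie2 (Tek). Around capillaries lie pericytes, around larger vessels smooth muscle, and between them fibroblasts that lay down collagen. Heart, lung and liver are each covered by mesothelium, a thin epithelial sheet that makes mesothelin (Msln), uroplakins and the transcription factor WT1 and can take on a mesenchymal, matrix-producing form.

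Values were deposited for 22520 genes and were taken as FPKM, a measure of fragments that corrects for transcript length and for the number mapped, after quantile normalization across the 8 libraries by the authors. This step gives each library nearly the same set of sorted values: the summed FPKM lay between 503571 and 503885, and each WT library had its maximum at 7793. Sequencing depth is thus unknown, and precision is judged from the 4 libraries only. A mean of at least 1 FPKM was reached by 11337 genes (50.3%), at least 5 FPKM by 8418 and at least 100 FPKM by 790 (3.51%). Another 5432 genes were listed at 0 in all 4. Over genes of at least 5 FPKM, log2(FPKM + 1) correlated between pairs of libraries with Pearson's r of 0.983 to 0.993 across genes, which are not replicates. Libraries 3 and 4 were the closest pair, with a median absolute difference of 0.09 on the log2 scale, and libraries 1 and 3 the farthest, with 0.17. Library 4 stood apart from libraries 1 to 3 in genes of the Y chromosome, with values given among the varying genes, and the number of varying genes is given with and without it. Other values on spread include it.

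The most abundant transcript was that of Mgp, matrix Gla protein, a vitamin K-dependent inhibitor of calcification (chromosome 6, 136872435 to 136875823, minus strand, mm10). It held the first rank in each of the 4 libraries, at 7793 FPKM. Fth1, the ferritin heavy chain that stores iron (chromosome 19, 9980598 to 9985098, plus strand), was second in each, at 6571 FPKM. Because quantile normalization assigns the same value to the same rank, the SD of 0 for both genes says only that the ranks did not change. Among the 120 values of the 30 most abundant genes there were 34 different numbers.

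The 10 highest genes held 9.58% ± 0.0676 (SD, n = 4) of the summed FPKM, the top 30 held 17.3% ± 0.108, the top 100 held 30.8% ± 0.0326 and the top 1000 held 66.3% ± 0.0354. These SDs are also narrowed by the normalization. Of the 29 neighbouring pairs in the top 30, 27 overlapped in their range over libraries. The exceptions were Mgp above Fth1 and Fth1 above mt-Co1, so that below the second place the order of neighbours is within the spread. In all, 27 genes were among the top 30 of all 4 libraries and 34 were among the top 30 of at least 1.

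**Figure D1:**
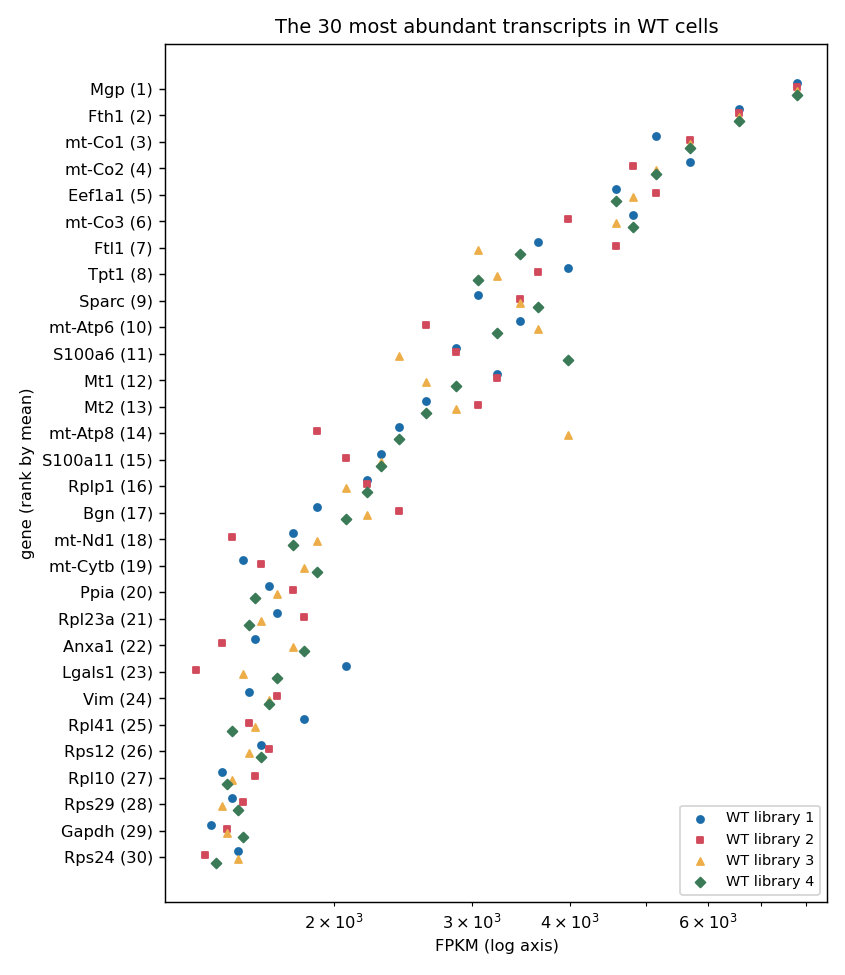
FPKM (log axis) of the 30 genes with the highest WT mean, ordered by rank, with 1 point for each of the 4 WT libraries. Mgp and Fth1 sit at 7793 and 6571 in every library, while the points of neighbouring genes from mt-Co1 down overlap.

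By function, the top 30 held 7 transcripts of the mitochondrial genome, 7 of cytosolic ribosomal proteins, 3 of secreted matrix proteins, 2 each of ferritin, metallothionein, S100 proteins and translation (Eef1a1, Tpt1), and 5 others. The matrix transcripts were Mgp, Sparc and Bgn. Sparc, a collagen-binding glycoprotein, was read at 3055, 3451, 3451 and 3645 FPKM in libraries 1 to 4. Bgn, the proteoglycan biglycan, was read at 1905, 2421, 2208 and 2075 FPKM. Neither varied by as much as 1 on the log2 scale.

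The mitochondrial genes led the energy-related transcripts. mt-Co1, mt-Co2 and mt-Co3, which encode the core of cytochrome c oxidase, had means of 5557 ± 270.2, 5200.3 ± 366 and 4543 ± 392 FPKM (SD, n = 4). All 13 protein genes of the mitochondrial genome were above 100 FPKM on average, and together they took 5.81%, 5.14%, 6.40% and 5.96% of the summed FPKM. The 82 cytosolic ribosomal protein genes took 13.1% ± 0.342, and 78 of them reached 1 FPKM. Ribosomal protein genes have many processed copies in the genome, so their single values are uncertain where counting could split reads.

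Iron and metal binding proteins were the next group. Ftl1, the ferritin light chain, was read at 3645, 4582, 3055 and 3451 FPKM, highest in library 2. With Fth1 it made up 2.04% ± 0.128 of the summed FPKM. The metallothioneins Mt1 and Mt2, small cysteine-rich proteins that bind zinc and copper, had means of 2988 ± 297 and 2792 ± 209 FPKM and made up 1.15% ± 0.0747. Mt1 was read at 3230, 3230, 2624 and 2866 FPKM, and Mt2 at 2624, 3055, 2866 and 2624. For both genes the highest and lowest library were well within 1 on the log2 scale.

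Metallothionein genes are known for promoter elements bound by the metal-sensing factor MTF1. The RefSeq promoters of the pair (GRCm38.p6, plus strand, 250 bases before to 50 after the start) are shown with the core of these elements in capitals, searched as TGCACNC and TGCGCNC on both strands.
Mt1, chr8:94178839-94179138: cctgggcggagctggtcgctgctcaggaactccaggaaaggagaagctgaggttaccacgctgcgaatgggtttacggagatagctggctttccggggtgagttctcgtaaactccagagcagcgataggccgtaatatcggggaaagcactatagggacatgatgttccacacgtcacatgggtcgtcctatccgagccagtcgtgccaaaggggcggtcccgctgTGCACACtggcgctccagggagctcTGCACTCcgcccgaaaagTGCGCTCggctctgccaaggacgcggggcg
Mt2, chr8:94172368-94172667: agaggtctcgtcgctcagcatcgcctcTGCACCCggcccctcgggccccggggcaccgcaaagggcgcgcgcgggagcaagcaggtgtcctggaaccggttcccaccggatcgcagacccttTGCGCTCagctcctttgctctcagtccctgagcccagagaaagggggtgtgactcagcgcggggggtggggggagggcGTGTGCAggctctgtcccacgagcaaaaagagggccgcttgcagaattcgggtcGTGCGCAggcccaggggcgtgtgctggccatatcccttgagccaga
The Mt1 window held 3 matches, all on the strand shown, and the Mt2 window held 4, of which 2 lie on the other strand. The Mt1 matches at positions 2 and 20 and the Mt2 match at position 4 lay after the start used, the others before it. Of 32851 promoter windows of this kind, 25.7% held at least 1 match, 1.97% at least 3 and 0.517% at least 4. A match is a run of letters and not evidence of binding in these cells.

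The calcium-binding S100 proteins were high as well. S100a6 was read at 2866, 2866, 2421 and 3977 FPKM and S100a11 at 2298, 2075, 2298 and 2298. S100a4, at rank 52, was read at 1249.5, 631, 964 and 1442 FPKM. Its highest and lowest library differed by over 1 on the log2 scale, as for only 3 of the 54 genes of at least 1000 FPKM (the others were Saa3 and mt-Atp8). Libraries 1 and 4 were high and library 2 low. The remaining members of the top 30 were Ppia (cyclophilin A), Anxa1 (a phospholipid-binding annexin), Lgals1 (galectin-1), Vim (the intermediate filament protein of mesenchymal and endothelial cells) and Gapdh (glycolysis), with means of 1464 to 1680 FPKM.

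The endothelial label was checked with 22 pan-endothelial genes. Of these, 19 had a mean of at least 1 FPKM, 10 of at least 5 and 1 of at least 100. Over all genes the shares were 50.3%, 37.4% and 3.51%. The median of the member means was 4.27 FPKM. The median over all 22520 genes was 1.07 FPKM, and that of the genes of at least 1 FPKM was 11.8. The list held 0.0603% ± 0.00179 (SD, n = 4) of the summed FPKM.

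Pecam1, the antigen of the beads, was read at 7.96, 8.05, 8.76 and 6.80 FPKM and ranked 7033 (chromosome 11, 106654217 to 106750628, minus strand). Cdh5, the gene of VE-cadherin, whose promoter drives the study's Cre, was read at 8.98, 9.31, 11.2 and 8.87 FPKM and ranked 6399 (chromosome 8, 104101625 to 104144511, plus strand). Kdr was read at 5.98, 5.08, 5.51 and 5.72 FPKM. The defining endothelial genes were thus present at low, even levels in all 4 libraries. Tek, Vwf (von Willebrand factor) and Erg (an endothelial transcription factor) had means of 1.18 ± 0.235, 1.56 ± 0.653 and 1.65 ± 0.129 FPKM. Nos3, the endothelial nitric oxide synthase, was at 0.357, 0.375, 0.278 and 0.247 FPKM. Because each library pools the RNA of all its cells, fewer cells of a type and less RNA per cell cannot be told apart.

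The highest members of the list included genes that other cells also use. Cd34, a sialomucin of endothelial, progenitor and stromal cells, was read at 109.6, 88.1, 100.3 and 118 FPKM. Eng, the TGF-beta co-receptor endoglin, had a mean of 56.5 ± 5.56 FPKM. Emcn, the endothelial mucin endomucin, followed with 29.5 ± 1.44 FPKM. Then came Egfl7, an endothelial secreted factor, with 24.9 ± 2.67, and Flt1 (VEGFR1) with 15.9 ± 3.03.

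Counts for the endothelial subtypes are to be read against the 50.3% of all genes that reached 1 FPKM. Of 7 lymphatic genes 4 reached 1 FPKM. The highest was Pdpn, podoplanin, which mesothelium and fibroblasts also make, at 246, 251, 231 and 197 FPKM. Prox1, the transcription factor that defines lymphatic endothelium, was at 0.61, 0.659, 0.864 and 0.676. The hyaluronan receptor Lyve1 was at 9.71, 10.9, 17.9 and 11.7 FPKM, highest in library 3.

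Of the 9 lung capillary genes measured, 6 reached 1 FPKM, led by Fibin at 25.5 ± 5.05. Car4, which marks an alveolar capillary type, was read at 1.61, 0.659, 0.510 and 0.509 FPKM, so it passed 1 only in library 1. Of 10 heart capillary genes 6 reached 1 FPKM. The highest were Fabp4, Fabp5 and Lpl, which bind or release fatty acids and are shared with other cell types, at 382 ± 25.7, 238 ± 22.0 and 208 ± 36.5. Cd36, the fatty acid transporter of capillaries, was far below these at 0.765, 1.39, 1.56 and 1.43 FPKM.

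The liver sinusoidal list had the lowest share of members present among the endothelial lists. Only 3 of its 11 genes reached 1 FPKM, against 50.3% of all genes: Stab1 at 13.2 ± 1.73, Lyve1, and the hepatic zonation ligand Wnt2 at 4.83, 1.59, 1.70 and 4.97. Stab2, its scavenger receptor, had a mean of 0.0865 FPKM, and the lectin Clec4g was listed at 0 in all 4 libraries.

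Genes that mark mesothelium stood far above the endothelial ones. All 10 members of that list had a mean of at least 15.07 FPKM and 6 of at least 100, against 3.51% of all genes at 100. The median of the member means was 138 FPKM. Members and lists were chosen with earlier results of these data known, so these counts and this median partly rest on that choice. In every library the list's median (132, 134, 151 and 133 FPKM) exceeded the endothelial median (5.09, 4.21, 4.23 and 3.49). Together the 10 genes held 0.633% ± 0.0503 of the summed FPKM.

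Msln, mesothelin, was read at 1227, 1117, 1094 and 1272 FPKM and ranked 42 of 22520 (chromosome 17, 25748613 to 25754378, minus strand). Upk1b and Upk3b, uroplakins of the mesothelial surface and the urothelium, followed with means of 637 ± 75.3 and 418 ± 51.9 FPKM. Igfbp6, an IGF-binding protein, had 516 ± 90.6. Wt1, the transcription factor of epicardium and other mesothelia, was read at 63.2, 57.4, 57.9 and 63.5 FPKM. Each of these 5 genes lay above Pecam1, Cdh5 and Kdr in all 4 libraries.

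The other members were Lrrn4 (159 ± 10.8), Gpm6a (116 ± 9.38), the R-spondin Rspo1 (65.8 ± 7.19), Krt19 (23.6 ± 9.27) and the retinoic acid-making enzyme Aldh1a2 (15.1 ± 2.91). Krt19, a simple-epithelium keratin, was the only member whose libraries differed by over 1 on the log2 scale, at 33.6, 17.1, 14.6 and 29.3 FPKM. Further epithelial genes were looked up after these values were seen. Krt7 had a mean of 142 ± 13.9 FPKM, Krt18 63.8 ± 19.0, Krt8 57.6 ± 19.2 and the mesothelin-binding mucin Muc16 8.41 ± 2.67 (its identifier had no match in GENCODE M21). The calretinin gene Calb2 and the basal keratin Krt5 were listed at 0 in all 4 libraries, and Cdh1, E-cadherin, had a mean of 0.408 ± 0.151. The simple keratins were thus present without E-cadherin at a like level.

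The levels of the defining genes thus go against a description of these libraries as endothelial cells alone: the gene of the selected antigen, Pecam1, ranked 7033 and mesothelin 42. The libraries are therefore called by their genotype, WT, and no other cell type name is given to them.

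**Figure D2:**
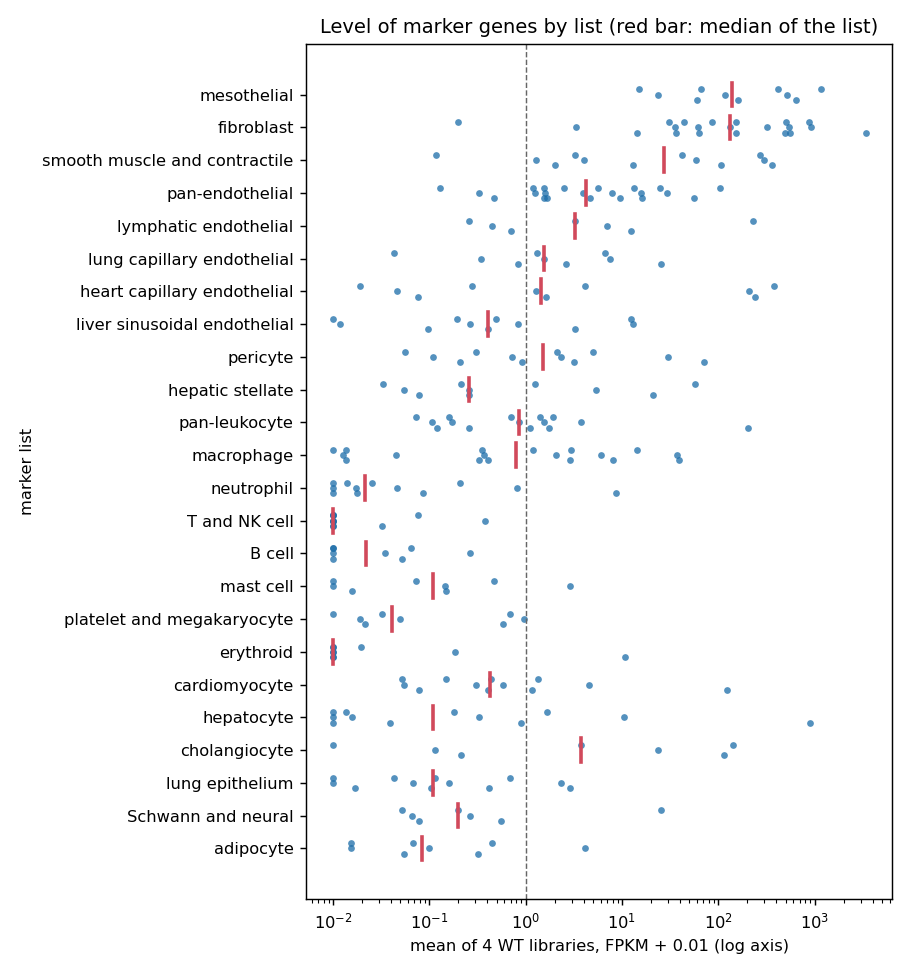
Mean FPKM plus 0.01 (log axis) of each member of 24 marker lists, 1 point a gene, with the list's median as a red bar and 1 FPKM as a dashed line. The mesothelial (138 FPKM) and fibroblast (133 FPKM) medians lie to the right, the pan-endothelial one (4.27 FPKM) between, and lymphocyte and erythroid medians at or near 0.

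Fibroblast genes were as abundant. Of 21 measured, 20 reached 1 FPKM, 19 reached 5 and 11 reached 100, with a median of 133 FPKM. Over all genes the shares were 50.3%, 37.4% and 3.51%. This list too was chosen with earlier results of these data known. Sparc alone had a mean of 3400 of the list's summed 8432 FPKM. Dcn, the collagen-binding proteoglycan decorin, was read at 711, 1227, 973 and 777 FPKM. Col1a2 and Col1a1, the chains of type I collagen, had means of 882 ± 108 and 499 ± 72.5 FPKM, and Col3a1 had 536 ± 98.1. Library 1 was the lowest of the 4 for each of these 4 genes.

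Pdgfra, the PDGF receptor of fibroblasts, was read at 37.4, 50.9, 49.0 and 38.3 FPKM, and Thy1, a surface glycoprotein, at 145, 105, 125 and 157. Tcf21, a transcription factor of heart and lung fibroblasts, had a mean of 36.2 ± 3.03. Pi16, a marker of adventitial fibroblasts, was nearly absent with a mean of 0.188 FPKM. The whole list held 1.41%, 1.78%, 1.75% and 1.76% of the summed FPKM, lowest in library 1.

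The extracellular matrix program was broad. All 14 fibrillar and basement membrane collagens reached 1 FPKM, 13 reached 5 and 6 reached 100. Over all genes the shares were 50.3%, 37.4% and 3.51%. Col4a1 and Col4a2, which form the network of basement membranes, had 673, 771, 905 and 947 FPKM and 474, 549, 602 and 638 FPKM. Col18a1 and Col15a1, basement membrane collagens of vessels and epithelia, were far lower, at 12.9 ± 0.655 and 2.39 ± 0.220. The collagen genes as a class held 0.817% ± 0.107 of the summed FPKM.

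Of 30 other secreted matrix genes 29 reached 1 FPKM (50.3% of all genes did) and 19 reached 100 (3.51% of all genes did). Besides Mgp, Sparc and Bgn, these included the protease inhibitors Timp2 (835 ± 47.0) and Timp3 (319 ± 29.7), thrombospondin Thbs1 (657 ± 189) and fibronectin Fn1 (501 ± 126). Lox and Eln varied over 1 on the log2 scale. Lox, which cross-links collagen and elastin, was read at 363, 442, 738 and 589 FPKM. Eln, elastin, was read at 20.5, 38.4, 45.7 and 31.9. For both, library 1 was lowest and library 3 highest.

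Of 12 contractile genes 11 reached 1 FPKM and 4 reached 100, against 50.3% and 3.51% of all genes. Their median was 27.4 FPKM. Acta2, smooth muscle alpha-actin, was read at 373, 309, 402 and 357 FPKM, and Tagln, an actin-binding protein, at 316, 232, 303 and 341. Tpm2, a tropomyosin, had a mean of 271 ± 35.1. Smtn (smoothelin), Des (desmin) and Actg2 (gamma-2 actin) lay between, with means of 59.1 ± 4.53, 41.6 ± 2.94 and 13.2 ± 4.21. Myh11, the smooth muscle myosin heavy chain, was at 1.77, 1.71, 3.10 and 1.55 FPKM, Cnn1 at 3.27 ± 0.490 and the coactivator Myocd at 0.106.

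Of 12 pericyte genes 6 reached 1 FPKM, the same share as among all genes (50.3%), 2 reached 5 and none 100, with a median of 1.5 FPKM. Pdgfrb, the PDGF receptor of mural cells and fibroblasts, was read at 56.2, 79.4, 80.9 and 70.1 FPKM, and Ndufa4l2 had a mean of 29.7 ± 3.67. Mcam, Anpep, Notch3 and Cox4i2 had means of 2.09 to 4.96 FPKM, and the other 6 were below 1. Rgs5, a regulator of G-protein signaling, was at 0.884, 0.893, 0.727 and 0.376, the proteoglycan Cspg4 (NG2) at 0.916 ± 0.222, and the channel genes Kcnj8 and Abcc9 at 0.197 and 0.1 on average.

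Of 10 hepatic stellate genes 4 reached 1 FPKM (40%, not far from the 50.3% of all genes). Among these were the R-spondin Rspo3 at 20.9 ± 3.93, Hand2 at 5.32 ± 0.483 and Colec11 at 1.25 ± 0.442. The list's median was 0.248 FPKM.

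**Figure D3:**
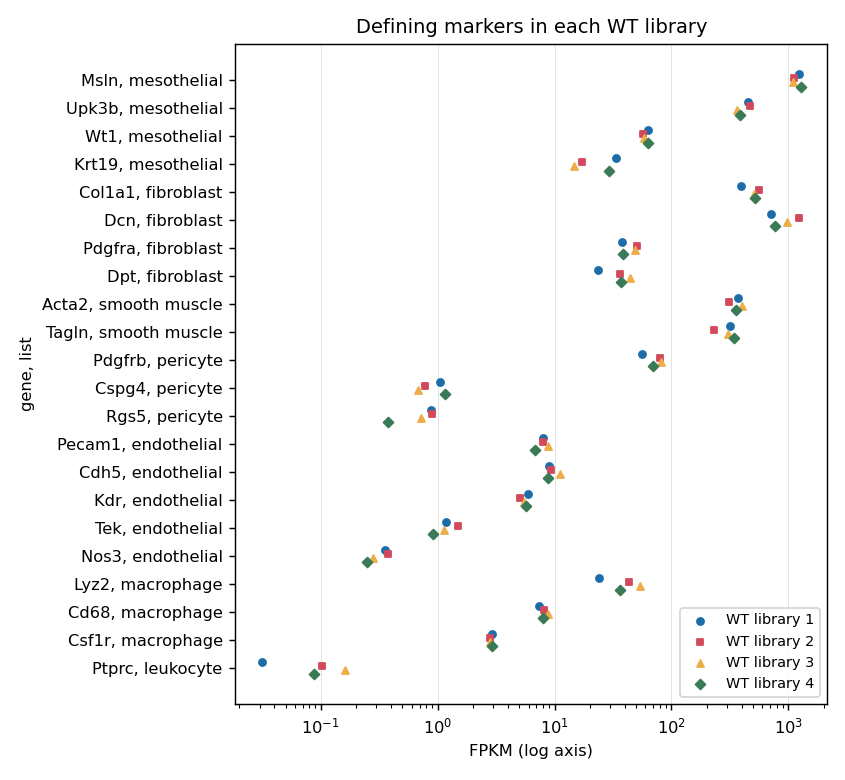
FPKM (log axis) in each of the 4 WT libraries for 22 markers of mesothelium, fibroblasts, smooth muscle, pericytes, endothelium, macrophages and leukocytes. Msln, Col1a1, Dcn and Acta2 lie above 300 FPKM in every library, Pecam1, Cdh5 and Kdr between 5.08 and 11.2, and Ptprc at 0.161 or below.

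Of 15 pan-leukocyte genes 7 reached 1 FPKM (46.7%, near the 50.3% of all genes) and only Arhgdib reached 5, against 37.4% of all genes. Arhgdib, a regulator of small GTPases that is not limited to leukocytes, was read at 225, 193, 182 and 208 FPKM. Ptprc, the pan-leukocyte surface phosphatase CD45, was at 0.0316, 0.103, 0.161 and 0.0879. The next highest was the adaptor Tyrobp at 2.75, 4.88, 4.52 and 2.86 FPKM.

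Of 18 macrophage genes 9 reached 1 FPKM, again near the share of all genes, and 5 reached 5. Csf1r, the receptor of the macrophage growth factor, was even over the libraries at 2.89, 2.81, 2.78 and 2.93 FPKM. Lyz2, lysozyme, was read at 24.0, 43.2, 54.3 and 36.2 and varied by over 1 on the log2 scale. Cd14, the lipopolysaccharide co-receptor, ran the other way at 47.9, 39.9, 29.9 and 31.4 FPKM, highest in library 1. Mertk, a receptor for apoptotic cells, and the lysosomal protein Cd68 had means of 14.3 ± 2.37 and 8.11 ± 0.624. The complement genes C1qa, C1qb and C1qc had means of 1.17 ± 0.695, 2.94 ± 1.10 and 2.03 ± 0.857, each lowest in library 1 and highest in library 3. Emr1 (F4/80) was at 0.316 ± 0.152, and Timd4, a marker of resident macrophages, was listed at 0.

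Lymphoid, granulocyte, platelet and erythroid genes were mostly near the floor. No T and NK cell gene of 11, no B cell gene of 8 and no platelet gene of 8 had a mean of at least 1 FPKM. Of all genes 50.3% did. Of the T and NK genes, 8 were listed at 0 in all libraries. Of 12 neutrophil genes only Mmp8, a collagenase, passed 1 FPKM, at 8.67 ± 0.759, and of 8 mast cell genes only Hdc, which makes histamine, at 2.86 ± 0.959. In the erythroid list the globins were listed at 0, while Alas2, the erythroid enzyme of heme synthesis, was read at 19.6, 6.35, 6.09 and 11.4 FPKM.

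Of 12 cardiomyocyte genes 4 reached 1 FPKM (33.3%, against 50.3% of all genes). Tnnt2, cardiac troponin T, was read at 120.4, 127, 95.5 and 152 FPKM, whereas Tnni3, its partner troponin I, was at 1.15 ± 0.142. Of 12 hepatocyte genes 3 reached 1 FPKM (25%, also below the share of all genes). Trf, transferrin, was at 964, 936, 816 and 836 FPKM, Ahsg at 10.5 ± 0.452 and Apoa2 at 1.67 ± 0.228, while the hepatocyte factor Hnf4a was listed at 0.

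Of 12 lung epithelial genes only Scgb1a1 and Ager passed 1 FPKM (16.7%, against 50.3% of all genes), at 2.89 ± 0.712 and 2.34 ± 0.920. Of 7 cholangiocyte genes 4 did (57.1%, near the share of all genes), but 2 of them, Krt7 and Krt19, are keratins of mesothelium as well. The others were Spp1, osteopontin, at 115 ± 19.5 and Sox9 at 3.72 ± 0.784. Among neural and fat genes only Mbp (25.6 ± 2.55) and Pparg (4.14 ± 0.783) passed 1 FPKM.

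Transcription factors that record where in the body a cell arose were read next. Of 18 measured, 11 reached 1 FPKM, against 50.3% of all genes. Gata6, a factor of heart, lung and mesothelium, was the most even at 78.5, 80.9, 77.3 and 78.7 FPKM. Gata4, of heart and liver mesenchyme, was at 13.8 ± 0.603, the cardiac factor Tbx20 at 5.39 ± 1.13 and the lung mesenchymal factor Tbx4 at 4.91 ± 0.519. Members below 1 FPKM included Meox2 at a mean of 0.267, Nkx2-1 at 0.0569 and Lhx2 at 0.0448. Some factors of heart and some of lung mesenchyme were thus read in the same libraries, while other members were near the floor.

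The cells carried cell cycle transcripts. All 20 cell cycle genes reached 1 FPKM and 17 reached 5, against 50.3% and 37.4% of all genes. Their median was 11.2 FPKM, near the 11.8 of all genes of at least 1 FPKM. Cdk1, the mitotic kinase, was read at 49.5, 38.0, 51.5 and 52.2 FPKM and Pcna, the replication clamp, at 47.6, 43.1, 47.0 and 46.5. Mki67, the proliferation marker, was lower at 3.34, 2.99, 3.81 and 4.78. Library 2 gave the lowest value for 19 of the 20, against 22.0% of the 8418 genes of at least 5 FPKM.

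Immediate-early genes, which rise within minutes of stimulation or tissue handling, were also read. Of 19, 18 reached 1 FPKM, against 50.3% of all genes, with a median of 22.6. Fos was at 34.6, 31.0, 40.6 and 35.0 FPKM and Jun at 11.7 ± 0.356. Of 18 interferon-response genes 16 reached 1 FPKM, again against 50.3% of all genes, led by Bst2 (tetherin) at 169 ± 15.9. Of 16 chemokines and cytokines 9 did, near the 50.3% of all genes, led by the macrophage growth factor Csf1 at 208 ± 39.5, the monocyte attractant Ccl2 at 179, 194, 187 and 196, and Cxcl12 at 96.8 ± 7.46.

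Glycolytic genes were high, with 14 of 15 hypoxia and glycolysis genes at 1 FPKM or above, against 50.3% of all genes. Aldoa was at 649.6 ± 18.2, Eno1 at 476 ± 18.5 and Pkm at 448 ± 18.5. Vegfa, the growth factor of endothelium, was read at 19.4, 31.0, 32.8 and 30.2 FPKM, lowest in library 1.

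Lrp1 itself, the gene deleted in the other arm of the study, was well expressed, at 112.7, 140.4, 103.2 and 124.2 FPKM. Its mean of 120.1 ± 16 ranked 639 (chromosome 10, 127538161 to 127621148, minus strand). The osteocalcin genes, which the study followed, were near the floor: Bglap was at 0.383, 0, 0.271 and 0.243 FPKM and Bglap2 at 0.152, 0, 0.292 and 0.108. Their near-identical copies can share reads, so the split between them is uncertain.

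Variation between the 4 libraries was examined over the 8418 genes of at least 5 FPKM. The median SD of log2(FPKM + 1) was 0.11 and the median difference between the highest and the lowest library was 0.25. In 89 genes (1.06%) that difference was at least 1, and these are called varying. The last gene inside this limit differed by 1.01 and the first outside by 0.996. The number rests on single libraries: it was 42 without library 1, 70 without library 2, 48 without library 3 and 70 without library 4. Of the 89 genes, 80 were in none of the lists, which hold 441 of the 22520 genes. The share of list members among the 8418 genes was not computed, so the count does not say whether they vary more or less. The 9 in lists were Eif2s3y, Ddx3y, Alas2, Krt19, Lyz2, Eln, Lox, mt-Nd4l and mt-Atp8.

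**Figure D4:**
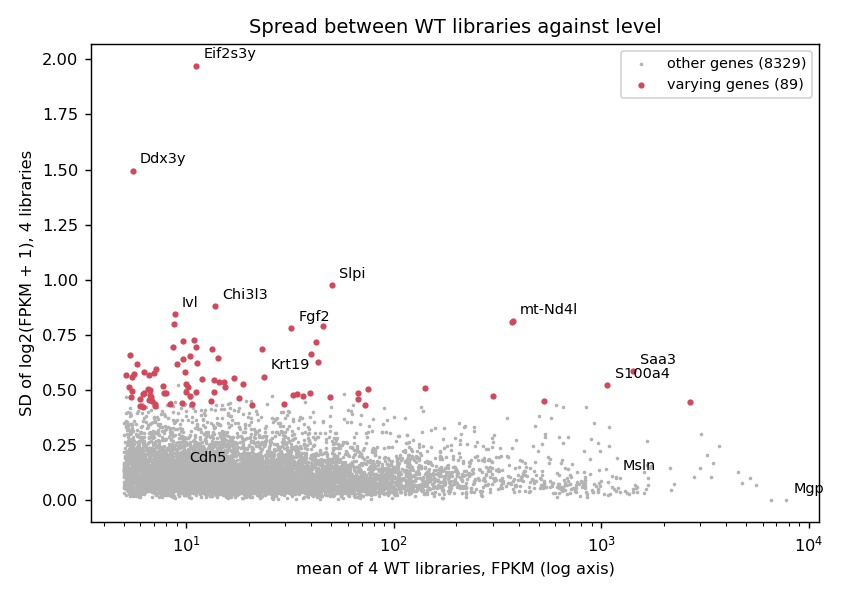
SD of log2(FPKM + 1) over the 4 WT libraries against the mean FPKM (log axis) of 8418 genes, with the 89 varying genes in red. Eif2s3y and Ddx3y stand highest, while Msln and Cdh5 lie within the grey cloud.

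The widest spread belonged to genes of the Y chromosome. Eif2s3y, a translation initiation subunit, was read at 14.3, 20.1, 10.1 and 0.0500 FPKM (chromosome Y, 1010543 to 1028847, plus strand). Ddx3y, an RNA helicase, was read at 5.97, 8.31, 7.71 and 0.0555. Uty and Kdm5d, a pair of histone demethylase genes, were at 1.74, 3.02, 1.90 and 0.00267 and at 1.41, 2.34, 1.85 and 0.00370. For each of the 4 genes library 4 lay below the other libraries by far. The labels do not give the sex of the pups.

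Slpi, Chi3l3 and Ivl followed in the order of SD. Slpi, a secreted inhibitor of leukocyte proteases, was read at 84.4, 53.1, 48.3 and 16.2 FPKM, again lowest in library 4. Chi3l3, a chitinase-like protein of alternatively activated macrophages, was at 4.75, 16.1, 22.9 and 11.2, lowest in library 1. Ivl, involucrin of stratified epithelium, was at 14.2, 3.11, 6.38 and 11.5.

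mt-Nd4l, a subunit gene of respiratory complex I, was read at 173, 256, 584 and 483 FPKM, and the pseudogene Gm10222 followed it at 174, 257, 587 and 488. The sequences of the 2 features (mm10, GENCODE M21) show why the values cannot be told apart, with the bases that only mt-Nd4l has in capitals.
mt-Nd4l, chrM:9877-10173, plus strand: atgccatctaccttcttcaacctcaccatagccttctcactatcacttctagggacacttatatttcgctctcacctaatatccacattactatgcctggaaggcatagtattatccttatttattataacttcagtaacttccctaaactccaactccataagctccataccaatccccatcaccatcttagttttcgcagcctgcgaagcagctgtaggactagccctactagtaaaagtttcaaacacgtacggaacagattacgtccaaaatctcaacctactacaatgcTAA
Gm10222, chr1:24612407-24612700, minus strand: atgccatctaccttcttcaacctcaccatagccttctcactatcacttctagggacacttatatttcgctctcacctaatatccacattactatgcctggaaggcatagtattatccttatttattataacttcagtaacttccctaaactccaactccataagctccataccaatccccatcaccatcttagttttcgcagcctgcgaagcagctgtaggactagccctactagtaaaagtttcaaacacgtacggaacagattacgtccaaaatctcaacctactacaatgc
The first 294 of the 297 bases are identical, so the pair is in effect 1 measurement, although it enters the counts of varying genes as 2. mt-Atp8, the other varying mitochondrial gene, was at 2421, 1905, 3977 and 2421 FPKM, high in library 3 only. It is short and overlaps mt-Atp6, which did not vary by 1 on the log2 scale.

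**Figure D5:**
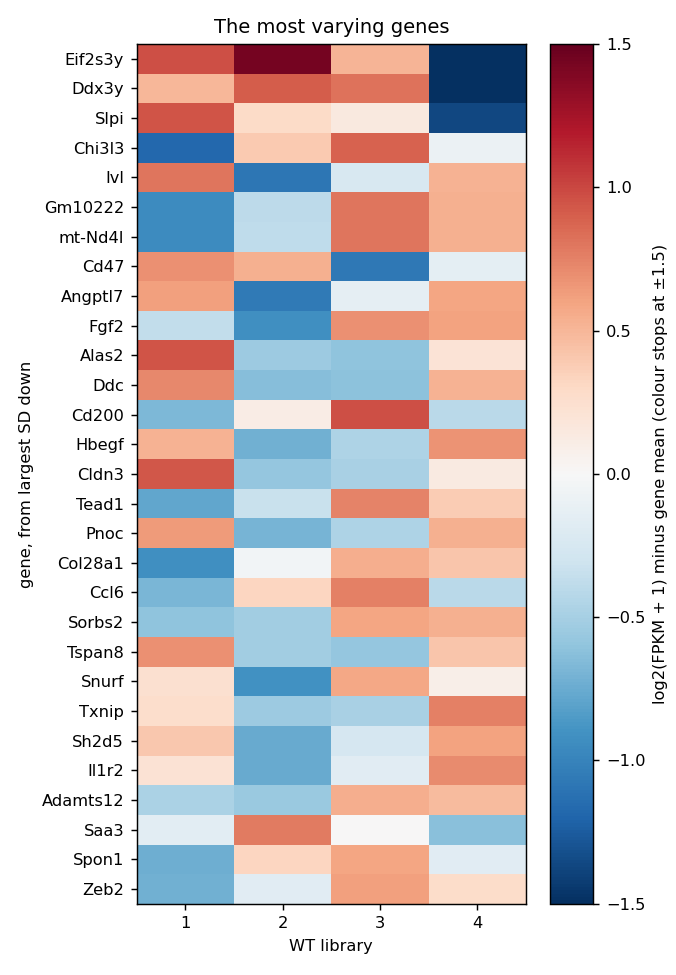
log2(FPKM + 1) minus the gene's mean for 29 of the 30 genes with the largest SD, by WT library, from blue (below the mean) to red (above). Eif2s3y, Ddx3y and Slpi are lowest in library 4, and many other rows are red in libraries 1 and 4 or in libraries 3 and 4.

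The varying genes fell into a few patterns by which pair of libraries was highest. Libraries 3 and 4 were highest for 37 of the 89 (41.6%), against 22.9% of the 8418 genes. This set held Fgf2, a fibroblast growth factor, at 22.0, 14.8, 47.0 and 44.5 FPKM, and Tead1, the transcription factor of the Hippo pathway, at 11.9, 16.6, 36 and 27.8 (1 of 2 identifiers with this symbol). It also held Col28a1, Sorbs2, Adamts12 and Zeb2. Transcript length moved with this pattern. The median longest transcript was 5690 bases in these 37 genes and 3085.5 in all varying genes with a length. Over the genes of at least 5 FPKM it was 4651 bases where libraries 3 and 4 were highest, 2489 where libraries 1 and 2 were highest and 3267 in all. The part of length in the result was not tested.

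Libraries 1 and 4 were highest for 20 genes (22.5%, against 18.5%). Cldn3, a tight junction claudin, was read at 20, 6.42, 6.89 and 11.2 FPKM, and Tspan8, a tetraspanin, at 21.7, 8.87, 8.44 and 17.9. Hbegf, a ligand of the EGF receptor, was at 11.7, 4.39, 5.42 and 13.2. Krt19, Ivl, Angptl7, Alas2, Ddc, Pnoc, Sh2d5, Il1r2 and Txnip showed the same pair on top.

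Libraries 2 and 3 were highest for 19 genes (21.3%, against 16.1%). Saa3, an acute-phase serum amyloid protein, was the most abundant of them at 1198, 2298, 1335 and 862 FPKM, rank 32. Ccl6, a chemokine of myeloid cells, was at 2.65, 6.33, 8.92 and 3.43, and Spon1, a matrix protein, at 3.10, 7.51, 9.25 and 5.04. Chi3l3, Cd200, Lyz2 and Eln showed the same pair on top.

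Libraries 1 and 2 were highest for only 7 varying genes (7.87%), against 28.6% of the 8418. They include Eif2s3y, Slpi and 1 of 2 identifiers with the symbol Cd47, at 13.1, 11.8, 3.20 and 6.98 FPKM. The other Cd47 identifier, at 49.2, 45.7, 57.3 and 53.4 FPKM, did not vary. Snurf, at 10.7, 4.30, 13.9 and 9.55 FPKM, belonged to the few genes with libraries 1 and 3 on top. The Snurf identifier and the varying Cd47 identifier had no match in GENCODE M21, so what they measure is uncertain.

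The cell type lists with a varying gene were the mesothelial and cholangiocyte lists (Krt19 in both), the macrophage list (Lyz2) and the erythroid list (Alas2). List members below 5 FPKM could not be called varying, although some, such as Nppa, Wnt2 and the C1q genes, had libraries over 1 apart on the log2 scale. Of the 30 most varying genes 4 were in any list, where the lists hold 441 of the 22520 genes.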

How the data were processed

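Total RNA was sequenced after TruSeq library preparation. The submitters' processing notes name TopHat2, Cufflinks and mm10, while the study's methods describe trimming, STAR and featureCounts. The deposited table holds values that are not whole numbers, taken here as FPKM quantile normalized by the authors across the 8 libraries. This unit is inferred from the values, and quantile-normalized TPM would look alike. Read depth is lost, so no counting error or interval is given. Sorted WT values of at least 1 differed between libraries by a median of 0.398% and at most 3.33%.

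Groups and replicate numbers came from the sample titles. Only the 4 WT columns were read, and 0 columns lacked a sample. With 1 group, no test was run: means and SDs (n = 4), ranks, shares of the summed FPKM and spread on log2(FPKM + 1) are descriptions. A gene of at least 5 FPKM varied where its highest and lowest library were at least 1 apart on that scale. The code for the spread was checked on a simulated table in which known genes had 1 library moved. Named genes are the 30 of highest mean, the defining and 3 highest members of each list, the 30 of largest SD, Lrp1, Bglap and Bglap2, and Y-linked genes. Genes covered by the rule that are not reported here were left out of the text and of the plot of varying genes. Genes named beyond it were chosen after their values were seen. The 35 lists, with 441 different genes in the table, were written by hand, and members and lists were chosen with earlier results of these data known. A further 10 list entries were not analysed here. Positions and transcript lengths came from GENCODE M21 (GRCm38, the assembly of mm10), which matched 21740 identifiers. In all, 124 symbols stand on more than 1 identifier. How the counting used strand is not given in the sources used here. Python 3.11.15, pandas 2.3.3, numpy 2.4.6 and matplotlib 3.10.9 were used. Alternatives changed the mean to a median, the scaling, the thresholds, the pseudocount, the filter on low values, the mitochondrial genes and the libraries included.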

Additional observations from a re-analysis of the deposited data

Results flagged for a closer look

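Of 107 results examined over the 4 WT libraries, 8 had 1 library far from the other 3, where chance alone gives about 1 in 20. Among abundant genes, mt-Co1 was low in library 1 (5151 FPKM), S100a11 was low in library 2 (2075 FPKM) and Rplp1 was low in library 3 (2075 FPKM). In each of these the other libraries shared a single value, which quantile normalization assigns by rank, so the distance is 1 or a few ranks. Ddx3y was low in library 4 (0.0555 FPKM), as was the median of the 4 Y-linked genes (0.0269 FPKM). The median of the mesothelial list was high in library 3 (151 FPKM), but the share of the summed FPKM that this list held was lowest there (0.575%), as were 5 of its 10 members, Msln among them. The share of the summed FPKM held by the fibroblast list was low in library 1 (1.41%), and that held by the pan-endothelial list was low in library 2 (0.0576%). Cd34, by far its highest member, was lowest in library 2 (88.1 FPKM), while 13 of the 22 members were lowest in library 4 and 4 in library 2.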

How the results depend on the processing

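Without mitochondrially encoded genes the top 10 held 8.59% and the top 100 held 28.3% of the summed FPKM, since these genes were taken out of both. With each replicate left out in turn, the first share ran from 9.55% to 9.62%, the second stayed at 30.8%, and 29 to 30 of the 30 most abundant genes were shared. At a threshold of 5 FPKM, fewer list members passed: 10 pan-endothelial, 2 pericyte, 7 contractile, 1 pan-leukocyte and 5 macrophage genes. The fibroblast and mesothelial lists kept 19 and 10. Of all genes 37.4% passed this threshold. The number of varying genes was 144 with no filter on low values and 136 with a mean of at least 1 FPKM, because more genes were then examined. With a pseudocount of 0.1 it was 126 and after rescaling the libraries 100. With each replicate left out it ran from 42 to 70, and 19 to 23 of the 30 most varying genes were shared. Of these 30, 17 fell under the limit without 1 library. No paired analysis was possible because the report makes no comparison between groups, so its results come from no test. Depth is unknown, and values near 0 carry no interval.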
